A study of Mus musculus with 6 samples.

Results

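The carboxylesterases are a family of enzymes that mouse liver encodes in tandem gene arrays, and 10 of them were followed here in livers of mice fed a diet that causes metabolic dysfunction–associated steatohepatitis (MASH). The members, *Ces1b*, *Ces1c*, *Ces1d*, *Ces1e*, *Ces1f*, *Ces1g*, *Ces2a*, *Ces3a*, *Ces3b* and *Ces4a*, were found by symbol among 25403 genes with a deposited count, and each symbol had 1 entry. *Ces3b* and *Ces4a* were chosen by their measured fall between the genotypes compared here, so their values are a description without a test, and the other 8 were added as family members for contrast. The remaining 9 genes with a *Ces* symbol in the table, none of them a listed member, are given beside them. The samples were 3 livers of wild-type C57BL6/J mice (WT) and 3 livers of whole-body *Themis*-knockout mice (*Themis*-KO). *Themis* encodes an adaptor of T cell receptor signaling and was missing by design from every cell of the knockout, T cells included, so the comparison is not specific to hepatocytes. The study's methods name The Jackson Laboratory as the source of WT mice and another laboratory as that of the knockout line, and the paper speaks of WT and *Themis*-KO littermates for chow-fed mice without saying so of the sequenced livers. Every mouse was put on the diet, which took 40% of its energy from fat and 20% from fructose and held 2% cholesterol, at an age of 10 to 12 weeks and stayed on it for 3 months. No chow-fed liver was part of the comparison, so each difference is one between genotypes on the same diet. The bulk libraries were made from polyadenylated RNA, and the libraries held 20679642 to 25649767 estimated counts.

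Carboxylesterases are serine hydrolases that sit mostly in the lumen of the endoplasmic reticulum, where they cleave ester, thioester and amide bonds. In hepatocytes they activate or inactivate many drugs, and several of them also act on the body's own lipids, including stored triacylglycerol and cholesteryl ester. The lipid freed by such enzymes can be burned, stored again or loaded onto very-low-density lipoprotein (VLDL).

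*Themis*, the inactivated gene, was at 8.07, 25.6 and 12.0 CPM (counts relative to TMM-scaled library size) in livers 1, 2 and 3 labelled WT and at 8.63, 7.74 and 9.97 CPM in those labelled *Themis*-KO. Liver 1 labelled WT lay inside the knockout range, so the transcript did not separate the labels, and every direction given here rests on the labels. Counts per gene do not show whether these reads fall in the inactivated part of the gene. Livers 1 and 2 labelled WT also differed from the other 4 livers in how reads divided between *mt-Nd3*, a mitochondrial gene, and its copy *Gm28438*: *Gm28438* took 96.6% and 96.8% of the reads of the pair in these livers and between 2.20% and 3.26% in liver 3 labelled WT and in the livers labelled *Themis*-KO. This split is called the mitochondrial type below, and when it is a covariate the genotypes are in effect compared between liver 3 labelled WT and the 3 livers labelled *Themis*-KO. The Y-linked gene *Ddx3y* was at 36.3 to 45.4 CPM in all 6 livers, and *Xist*, the RNA that silences 1 X chromosome in females, was at 0.378 CPM or less. In whole-liver RNA, fewer cells of a type and less RNA per cell cannot be told apart.

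All 19 *Ces* genes in the table lie on chromosome 8 of GRCm38, in 2 arrays whose nearest ends are 11.4 Mb apart. The *Ces1* array, from 93020214 to 93379725, holds the 8 *Ces1* genes on the reverse strand, and 6 of the members are in it. The second array, from 104734003 to 105150109, holds 11 genes on the forward strand, ordered from *Ces2a* through the other *Ces2* genes to *Ces3a*, *Ces3b* and *Ces4a*. *Ces3b* (105083753 to 105093929) starts 25.3 kb after *Ces3a* (105048601 to 105058413) ends, and *Ces4a* (105131800 to 105150109) starts a further 37.9 kb on. *Ces2a* (104734003 to 104741634) opens the array. All of the members are annotated as protein-coding in GENCODE vM21.

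Near-identical copies matter for these values, because RSEM shares a read that matches several genes among them. The coding sequences of *Ces3a* and *Ces3b*, 1713 bases each, were 95.3% identical, the highest value among all pairs of protein-coding *Ces* genes in the table. Their longest identical run was 194 bases, and 7.68% of the windows of 100 bases in the *Ces3b* transcript occurred exactly in another gene. The same share was 10.7% for *Ces2a*, 16.0% for *Ces2c*, 1.39% for *Ces1c* and 0 for *Ces4a*, whose coding sequence was at most 61.8% identical to that of any other *Ces* gene. Reads of *Ces3a* and *Ces3b* can still be told apart where the copies differ. The stretch of 60 coding bases in which they differ most, bases 758 to 817 of both, is shown to make that visible, with the 13 differing bases in capitals:
Ces3a: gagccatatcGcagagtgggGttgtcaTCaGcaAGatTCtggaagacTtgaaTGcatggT
Ces3b: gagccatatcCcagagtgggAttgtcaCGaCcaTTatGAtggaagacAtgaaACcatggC

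Levels of different genes were compared per kilobase of the longest coding transcript, as CPM per kb. In the livers labelled WT the order opened with *Ces3a* at 615 ± 108 CPM per kb (SD, n = 3) and *Ces1c*, which encodes an esterase secreted into plasma, at 583 ± 52.0, and these neighbours did not differ beyond their spread. *Ces1d*, the triacylglycerol hydrolase that supplies lipid for VLDL, followed at 250 ± 100 CPM per kb and *Ces1f* at 218 ± 29.5, again within their spread. *Ces2e*, *Ces3b*, *Ces1e*, *Ces1g* and *Ces2a* formed a middle group between 55.0 and 79.0 CPM per kb, in which *Ces3b* stood at 74.6 ± 16.6. *Ces2c* was at 37.1 ± 5.84 CPM per kb, *Ces2g* at 15.4 ± 0.266 and *Ces1b* at 9.28 ± 1.24. *Ces4a* was near the bottom, at 0.395 ± 0.184 CPM per kb.

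The order changed at a few places in the livers labelled *Themis*-KO. *Ces1c* came first at 440 ± 32.5 CPM per kb and *Ces3a* second at 389 ± 30.7, and *Ces3b* took rank 10, at 16.9 ± 1.76 CPM per kb, after rank 6 in the livers labelled WT. Only 4 of the 19 genes, *Ces1a*, *Ces1h*, *Ces2d-ps* and *Ces2f*, were too low to be tested, with at most 14 counts in any liver. *Ces1a* had 1, 3 and 6 counts in the livers labelled WT and 14, 4 and 8 in those labelled *Themis*-KO, groups that overlap.

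*Ces3b* was the more abundant of the pair chosen for a fall. Its level was 221, 175 and 142 CPM in livers 1, 2 and 3 labelled WT and 45.0, 36.6 and 40.4 CPM in those labelled *Themis*-KO. The groups did not overlap, and the means were 179 ± 39.9 and 40.7 ± 4.23 CPM (SD, n = 3), so that 22.7% of the WT mean remained. The fitted log2 fold change was −2.14 (SE 0.17), and it was −1.80 (SE 0.17) with the mitochondrial type as a covariate. With each liver left out in turn it ran from −2.28 to −1.96.

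*Ces4a*, a member with no close paralog in mouse, was at the edge of detection in these libraries. It had 32, 13 and 20 counts in livers 1, 2 and 3 labelled WT and 1, 0 and 1 in those labelled *Themis*-KO. Summed over livers, 65 counts stood against 2, a depth-adjusted ratio of 32.5 with an exact 95% interval of 8.64 to 274, which covers counting error alone. As levels these were 0.960 ± 0.447 and 0.0299 ± 0.0260 CPM (SD, n = 3). Both *Ces3b* and *Ces4a* were picked for these falls, and nothing is inferred from their size.

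**Figure D1:**
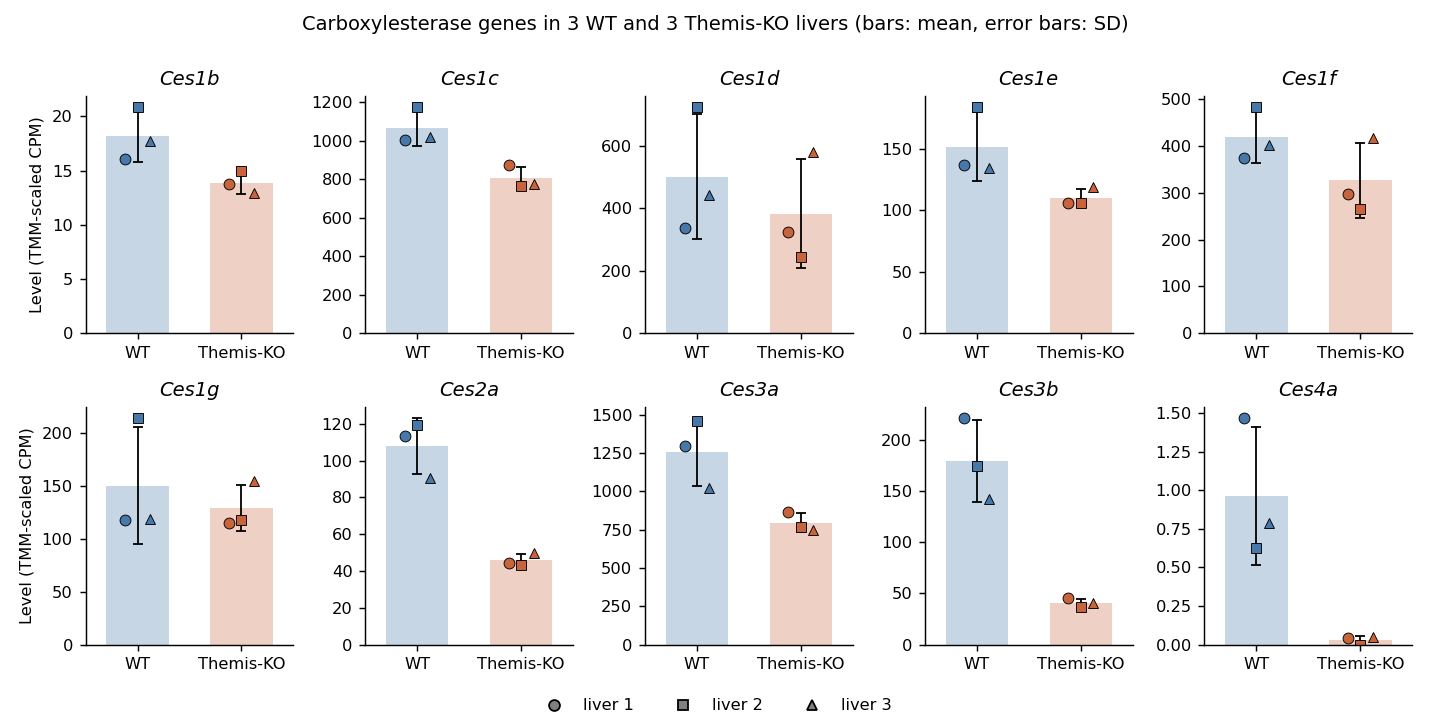
Level of each of the 10 members, in chromosome order, in CPM (vertical axes, each starting at 0) for livers labelled WT (blue) and *Themis*-KO (orange). Bars are means of 3 livers, error bars are SD and symbols are single livers; for *Ces3b*, *Ces4a*, *Ces2a*, *Ces3a*, *Ces1b*, *Ces1c* and *Ces1e* the groups do not overlap, and for *Ces1d*, *Ces1f* and *Ces1g* they do.

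Across the whole table, 14496 genes passed the filter on low counts. At an adjusted p under 0.05 in edgeR's quasi-likelihood test, 4.14% of them were lower and 4.97% higher in livers labelled *Themis*-KO, and every liver of that label lay below every liver labelled WT in 16.9% and above in 17.7%. All of the listed members and 5 other *Ces* genes passed the filter. Among the 8 members that were not chosen for a fall, 2 were called lower and 0 higher, with 5 whose groups did not overlap, all lower. Among the 5 other tested *Ces* genes 1 was lower and 0 higher, with 2 below. The fitted log2 fold change was negative for each of the 13 tested *Ces* genes other than *Ces3b* and *Ces4a* under TMM scaling, with a median of −0.41 beside 0.0095 over all genes, but *Ces2g* turned to 0.051 with scaling by library totals only. That scaling raised the median of all genes to 0.15, put the median of the 13 at −0.27 and moved the share of higher genes among all called from 54.6% to 78.9%. No *Ces* gene was higher at an unadjusted p under 0.05 in edgeR's test or by DESeq2, beside 2438 and 1279 of all tested genes. DESeq2 called 7 lower, *Ces3b* and 6 of the 13 not chosen for a fall, beside 7.52% of all tested genes. EdgeR's count of lower genes among the 13 was 3, *Ces2a*, *Ces2c* and *Ces3a*. With the mitochondrial type as a covariate, which in effect compares liver 3 labelled WT with the livers labelled *Themis*-KO, the median log2 fold change of the 13 was −0.34. The count of lower genes among the 13 was 1 without liver 1 or liver 2 labelled WT and 2 without liver 3 of that label. It was 0 without liver 1 labelled *Themis*-KO, 1 without liver 2 of that label and 8 without liver 3 of it. Of all genes tested in these fits, 0.22%, 0.38% and 2.49% were lower without livers 1, 2 and 3 labelled WT. The shares were 0.081%, 0.28% and 13.8% without livers 1, 2 and 3 labelled *Themis*-KO.

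*Ces2a* had the largest fall of the members not chosen for one. *Ces2a* encodes a carboxylesterase of the CES2 type, which prefers substrates with a small acyl group and also hydrolyzes acylglycerols. Its level was 113, 120 and 90.5 CPM in livers 1, 2 and 3 labelled WT and 44.4, 43.5 and 49.8 CPM in those labelled *Themis*-KO. These groups were far apart, with means of 108 ± 15.3 and 45.9 ± 3.41 CPM (SD, n = 3). The log2 fold change was −1.23 (SE 0.12, edgeR adjusted p = 0.00918). Without liver 1 labelled *Themis*-KO the adjusted p was 0.0504, and with the mitochondrial type as a covariate the change was −0.98 (SE 0.12, edgeR adjusted p = 0.123).

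*Ces3a*, the neighbour and closest relative of *Ces3b*, fell less. It was at 1294, 1458 and 1020 CPM in livers 1, 2 and 3 labelled WT and at 868, 771 and 751 CPM in those labelled *Themis*-KO. The groups did not overlap, and the log2 fold change was −0.66 (SE 0.14, edgeR adjusted p = 0.0369). The call was lost without liver 1 or 2 of either label, with adjusted p-values from 0.106 to 0.134, and with the mitochondrial type as a covariate the change was −0.36 (SE 0.15, edgeR adjusted p = 0.468).

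Shares within each library do not depend on the scaling. *Ces3b* took 14.6%, 10.7% and 12.2% of the summed *Ces3a* and *Ces3b* counts in livers 1, 2 and 3 labelled WT and 4.93%, 4.53% and 5.11% in those labelled *Themis*-KO. These shares did not overlap, but *Ces3b* was chosen for its fall, so they are a description and not a test. *Ces2a* took 27.0%, 25.3% and 21.1% of all *Ces2* counts in livers labelled WT and 15.2%, 14.5% and 14.1% in those labelled *Themis*-KO (p = 0.1 in an exact permutation test, two-sided, which cannot go lower with 3 livers a label). *Ces1c*, by contrast, took 46.7 ± 4.40% and 46.2 ± 7.39% of all *Ces1* counts (SD, n = 3, p = 0.8 in the same exact permutation test).

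**Figure D2:**
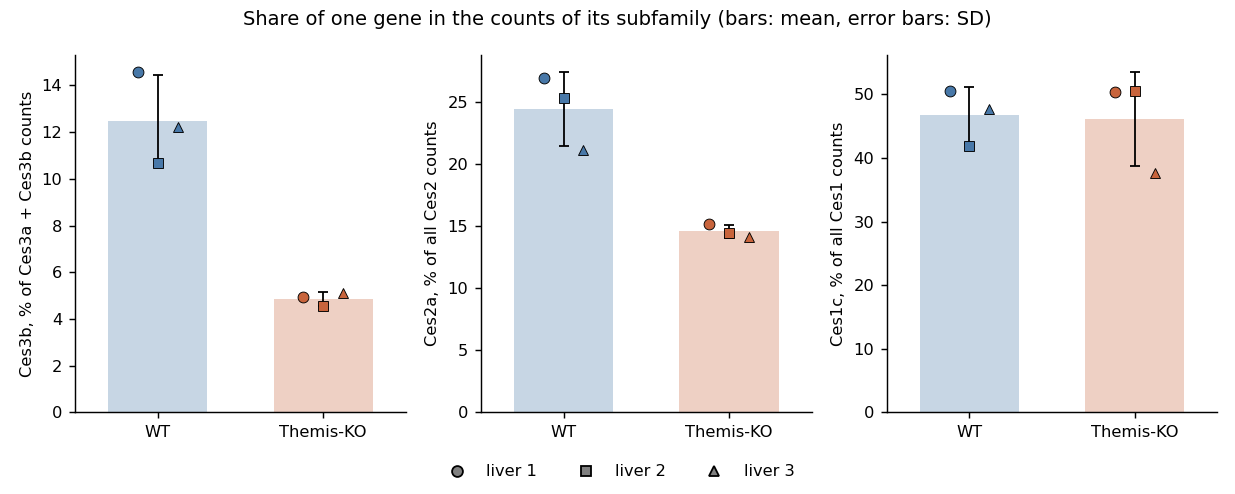
Share of *Ces3b* in the summed counts of *Ces3a* and *Ces3b*, of *Ces2a* in those of all *Ces2* genes and of *Ces1c* in those of all *Ces1* genes (vertical axes in percent, starting at 0) for livers labelled WT (blue) and *Themis*-KO (orange). Bars are means of 3 livers, error bars are SD and symbols are single livers. The share of *Ces3b*, which was chosen for its fall, is between 10.7% and 14.6% in livers labelled WT and between 4.53% and 5.11% in the others. The *Ces1c* shares overlap.

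None of the 6 *Ces1* members passed the threshold in edgeR's test. *Ces1c* was at 1003, 1175 and 1019 CPM in livers 1, 2 and 3 labelled WT and at 872, 764 and 776 CPM in those labelled *Themis*-KO, without overlap, with a log2 fold change of −0.41 (SE 0.11, edgeR adjusted p = 0.0520). *Ces1e*, whose product egasyn holds β-glucuronidase in the endoplasmic reticulum, was at 137, 184 and 134 against 106, 106 and 119 CPM, also without overlap (−0.46, SE 0.13, edgeR adjusted p = 0.0681). *Ces1b* was the lowest of these members, at 18.2 ± 2.43 and 13.9 ± 1.04 CPM (SD, n = 3), and had a log2 fold change of −0.39 (SE 0.13, edgeR adjusted p = 0.0844). DESeq2 called *Ces1c* (adjusted p = 0.00479) and *Ces1e* (adjusted p = 0.0195) lower and did not call *Ces1b* (adjusted p = 0.0624).

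*Ces1d*, *Ces1f* and *Ces1g*, the members best known for acting on hepatocyte lipid, had groups that overlapped. *Ces1d* was at 336, 725 and 444 CPM in livers 1, 2 and 3 labelled WT and at 325, 245 and 581 CPM in those labelled *Themis*-KO. Its spread within a label was larger than the difference between labels, and the log2 fold change was −0.39 (SE 0.36, edgeR adjusted p = 0.495). *Ces1f* had −0.36 (SE 0.18, edgeR adjusted p = 0.211), with liver 3 labelled *Themis*-KO at 417 CPM, above livers 1 and 3 labelled WT at 373 and 403. *Ces1g*, whose loss is known to raise hepatic lipid synthesis in mice, was at 118, 214 and 119 CPM against 115, 118 and 154 CPM. Its log2 fold change of −0.22 (SE 0.24, edgeR adjusted p = 0.565) turned to 0.12 without liver 2 labelled WT and to 0.12 with the mitochondrial type as a covariate. Because RSEM may divide shared reads unevenly, the 8 *Ces1* genes were also summed before the fit, which gave −0.39 (SE 0.17, edgeR adjusted p = 0.164).

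The highest *Ces1* values were in the same livers across genes. Liver 2 labelled WT had the highest level of all 6 *Ces1* members among the WT livers, and liver 3 labelled *Themis*-KO had the highest of *Ces1d*, *Ces1e*, *Ces1f* and *Ces1g* among the knockout livers. With the group means removed, *Ces1d* and *Ces1f* had a Pearson r of 0.98 in log2 CPM over the 6 livers and *Ces1e* and *Ces1g* 0.99. These were the highest values among all pairs of tested *Ces* genes. High values were not confined to *Ces1* pairs, as *Ces1d* had 0.97 with *Ces2c* and 0.84 with *Ces2e*. With the other tested *Ces2* genes *Ces1d* had 0.65 (*Ces2g*), 0.52 (*Ces2a*), 0.17 (*Ces2h*) and −0.81 (*Ces2b*). *Ces1d* and *Ces3b* had −0.14. These points share their libraries and, for paralogs, some reads.

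The *Ces2* genes outside the list differed widely. *Ces2c* was at 61.1, 84.0 and 74.0 CPM in livers 1, 2 and 3 labelled WT and at 37.7, 36.0 and 53.1 CPM in those labelled *Themis*-KO, without overlap, and fell by 0.79 on the log2 scale (SE 0.18, edgeR adjusted p = 0.0386). That call held without liver 3 labelled *Themis*-KO and was lost without any one of the other 5 livers, with adjusted p-values from 0.0744 to 0.137. *Ces2b*, with 51, 13 and 36 counts against 11, 7 and 4, had a log2 fold change of −2.17 (SE 0.55, edgeR adjusted p = 0.0502). Its summed counts of 100 and 22 gave a depth-adjusted ratio of 4.54, with an exact 95% interval of 2.84 to 7.57 for counting error alone.

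*Ces2e* and *Ces2g*, which lie between *Ces2c* and *Ces3a*, had log2 fold changes near 0. *Ces2e* was at 213 ± 11.6 and 185 ± 16.9 CPM (SD, n = 3; log2 fold change −0.21, SE 0.10, edgeR adjusted p = 0.189) and *Ces2g* at 44.0 ± 0.761 and 41.4 ± 3.69 CPM (−0.09, SE 0.09, edgeR adjusted p = 0.536). *Ces2h*, at 0.753 ± 0.158 and 0.502 ± 0.239 CPM, had −0.58 (SE 0.41, edgeR adjusted p = 0.369). Summed, the 8 *Ces2* genes had a log2 fold change of −0.48 (SE 0.10, edgeR adjusted p = 0.0369).

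**Figure D3:**
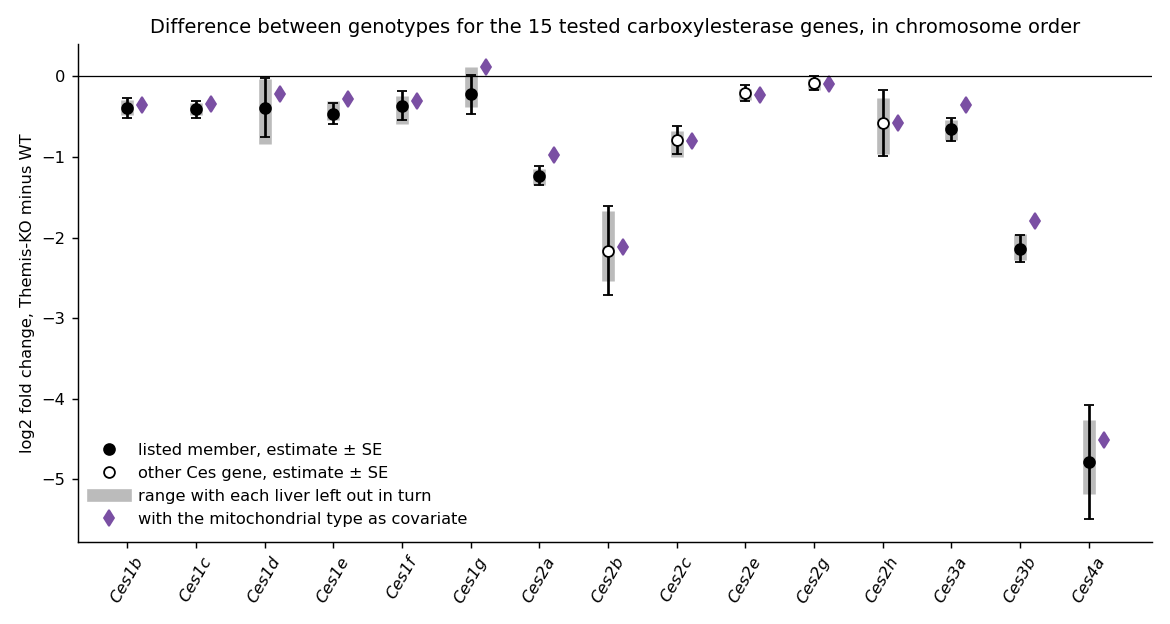
Log2 fold change between livers labelled *Themis*-KO and WT (vertical axis) of the 15 tested *Ces* genes in chromosome order, with SE as error bars, the range over 6 fits that each leave out 1 liver as grey bars and the estimate with the mitochondrial type as a covariate as diamonds. The estimates run from −0.09 for *Ces2g* to the imprecise value of *Ces4a*, which rests on 2 counts in 1 group, and the range of *Ces1g* crosses 0.

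Along the chromosome the size of the change differed from gene to gene. In the second array the log2 fold change was −1.23 for *Ces2a*, −2.17 for *Ces2b*, −0.79 for *Ces2c*, −0.21 for *Ces2e*, −0.09 for *Ces2g*, −0.58 for *Ces2h*, −0.66 for *Ces3a* and −2.14 for *Ces3b*. The 6 tested *Ces1* genes lay between −0.46 and −0.22. No tested protein-coding gene of another family lay inside either array. Of the 12 nearest ones outside, 3 on each side of each array, 1 was lower and 1 higher, and their median log2 fold change was −0.03. The lower one was *Pdp2*, a pyruvate dehydrogenase phosphatase 135 kb before *Ces2a* (−0.58, SE 0.13, edgeR adjusted p = 0.0399). *Mmp2*, a gelatinase 167 kb before the *Ces1* array, was higher (0.66, SE 0.15, edgeR adjusted p = 0.0395). *Cbfb*, which starts 20.6 kb after *Ces4a* ends, had 0.19 (SE 0.13, edgeR adjusted p = 0.345).

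**Figure D4:**
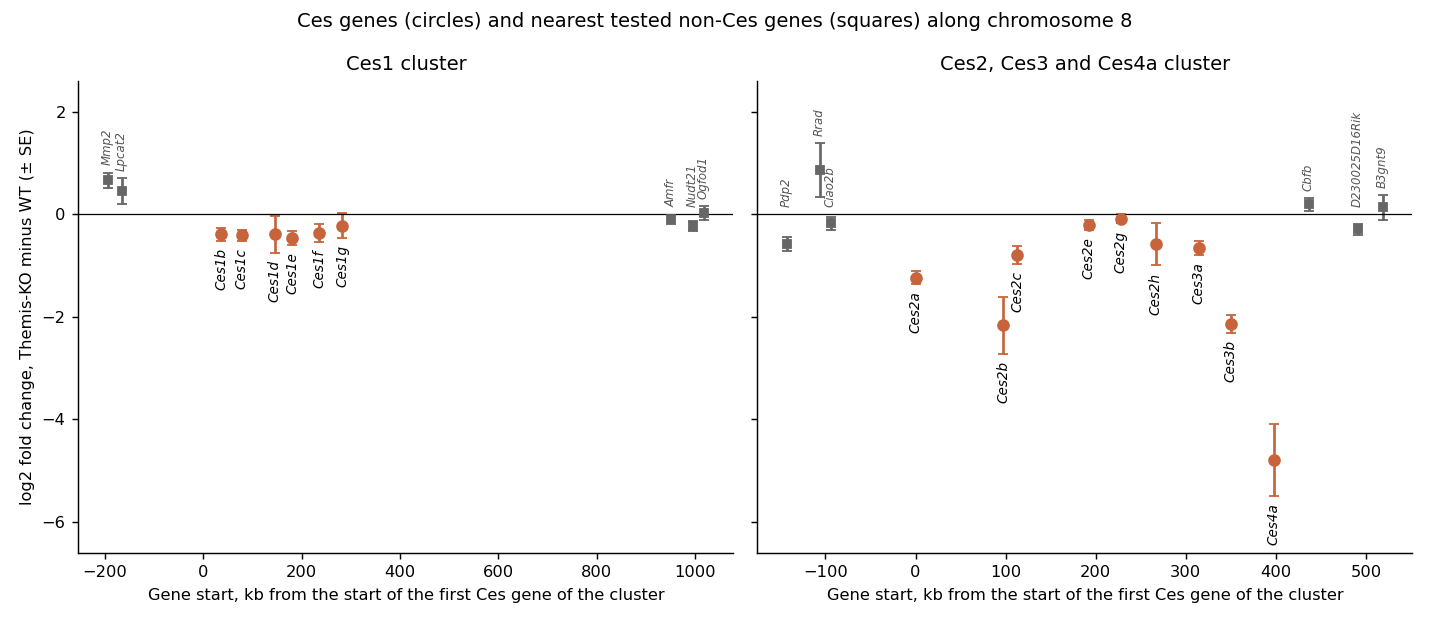
Log2 fold change between livers labelled *Themis*-KO and WT (vertical axis, SE as error bars) against the distance of each gene's start from the first *Ces* gene of its array (horizontal axis, kb), for *Ces* genes (circles) and the nearest tested genes of other families (squares). *Irx3*, 1218 kb from the *Ces1* array, is not drawn; *Ces4a* lies lowest, and *Ces2b* near the start of the second array and *Ces3b* towards its end lie at −2.17 and −2.14.

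The promoters of *Ces2a*, *Ces3b* and *Ces4a*, with that of *Ces2e* as a gene of the same array with a log2 fold change of −0.21, are shown because these genes share an array and differ in the size of their fold change. Each is the 250 bases before the RefSeq transcript start in GRCm38.p6, on the forward strand, with matches of the motifs below in capitals. They span chr8:104733753-104734002 for *Ces2a*, chr8:105083505-105083754 for *Ces3b*, chr8:105131550-105131799 for *Ces4a* and chr8:104926010-104926259 for *Ces2e*:
Ces2a: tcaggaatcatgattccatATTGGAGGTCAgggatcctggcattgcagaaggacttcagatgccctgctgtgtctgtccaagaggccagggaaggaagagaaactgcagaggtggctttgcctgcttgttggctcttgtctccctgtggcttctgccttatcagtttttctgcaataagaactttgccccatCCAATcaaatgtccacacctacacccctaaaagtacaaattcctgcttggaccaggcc
Ces3b: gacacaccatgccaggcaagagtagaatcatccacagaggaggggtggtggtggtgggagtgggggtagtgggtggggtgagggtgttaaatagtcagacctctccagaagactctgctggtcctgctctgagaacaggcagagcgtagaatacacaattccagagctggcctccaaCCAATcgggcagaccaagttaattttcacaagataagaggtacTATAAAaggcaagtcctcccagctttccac
Ces4a: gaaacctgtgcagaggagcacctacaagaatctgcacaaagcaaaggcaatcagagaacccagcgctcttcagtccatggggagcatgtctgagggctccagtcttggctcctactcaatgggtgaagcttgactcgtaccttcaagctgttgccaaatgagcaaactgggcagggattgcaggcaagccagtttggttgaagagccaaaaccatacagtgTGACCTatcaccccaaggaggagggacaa
Ces2e: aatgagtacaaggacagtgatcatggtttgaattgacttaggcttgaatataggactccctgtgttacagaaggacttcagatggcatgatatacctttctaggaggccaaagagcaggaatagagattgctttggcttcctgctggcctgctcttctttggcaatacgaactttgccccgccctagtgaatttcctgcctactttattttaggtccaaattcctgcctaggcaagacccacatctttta

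The motifs searched, on both strands, were TTCNNNGAA (the STAT5 site), AGGTCA (a nuclear receptor half-site), TGTTTAC (FOXA), TATAAA (the TATA box) and CCAAT. *Ces3b* had a TATAAA beginning 30 bases before the start and a CCAAT beginning 73 before it. *Ces2a* had CCAAT 58 and 231 bases before the start, the latter directly followed by an AGGTCA at 226, and *Ces4a* had 1 AGGTCA, on the reverse strand, 29 bases before it. The *Ces2e* window held none of the 5. Among all 32851 promoter windows of the same length, 7.02% held TTCNNNGAA, 14.0% AGGTCA, 3.17% TGTTTAC, 12.4% TATAAA and 33.8% CCAAT. The 15 windows of 14 *Ces* genes held them in 1, 3, 0, 3 and 9 cases, and the only TTCNNNGAA was in *Ces1h*, which had at most 2 counts in any liver. These matches are letters in a window and not measured sites.

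The 5 genes of other families whose levels followed *Ces3b* most closely over the 6 livers, by Pearson r in log2 CPM, were *Tmem183a*, *Acadsb*, *Zfp799*, *Mup14* and *Serpina1b*, with r between 0.996 and 0.998. A correlation of this kind holds the difference between the labels as well as the spread within them, and 2.17% of all tested genes had an r over 0.95. *Acadsb*, a mitochondrial acyl-CoA dehydrogenase, was at 126, 114 and 107 CPM in livers 1, 2 and 3 labelled WT and at 70.6, 69.1 and 71.5 CPM in those labelled *Themis*-KO. *Mup14*, a major urinary protein gene in a family of near-identical copies, was at 806, 589 and 436 against 80.4, 75.1 and 64.1 CPM. Both were highest in liver 1 labelled WT, as *Ces3b* was, but they were picked for following *Ces3b* over these same livers. Within the family, r with *Ces3b* was 0.99 for *Ces4a*, 0.98 for *Ces2a*, 0.93 for *Ces3a* and 0.90 for *Ces1c*, and 0.35 for *Ces1d* and 0.25 for *Ces1g*. *Ces3b* and *Ces4a* were both chosen for their fall, so a high r between them follows from that choice. With the group means removed, r with *Ces3b* was 0.74 for *Ces4a*, 0.62 for *Ces2a*, 0.65 for *Ces3a* and 0.16 for *Ces1c*. It was then −0.14 for *Ces1d* and −0.05 for *Ces1g*.

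Other hydrolases of esters and lipids formed a list of 29 genes without *Ces* members. Of the 29, 4 were lower and 1 higher, beside the 4.14% and 4.97% of all tested genes, with a median log2 fold change of −0.10, which became 0.04 with scaling by library totals only. Without liver 1 or 2 of either label edgeR called 0 of them lower and 0 higher. It called 4 lower and 1 higher without liver 3 labelled WT, and 9 and 2 without liver 3 labelled *Themis*-KO. *Lipe*, hormone-sensitive lipase, was at 37.7, 37.3 and 29.6 CPM in livers 1, 2 and 3 labelled WT and at 16.7, 14.4 and 19.4 CPM in those labelled *Themis*-KO (log2 fold change −1.05, SE 0.14, edgeR adjusted p = 0.0131). *Pon1*, the paraoxonase of high-density lipoprotein, fell from 427 ± 56.4 to 261 ± 19.0 CPM (SD, n = 3; edgeR adjusted p = 0.0223), and *Lpl*, lipoprotein lipase, rose (log2 fold change 0.76, SE 0.18, edgeR adjusted p = 0.0412). *Aadac*, arylacetamide deacetylase, another esterase of the hepatocyte endoplasmic reticulum, also fell, with a log2 fold change of −0.53 (SE 0.10, edgeR adjusted p = 0.0251). *Lipc*, hepatic lipase, had −0.35 (SE 0.11, edgeR adjusted p = 0.0756) and *Pnpla2*, adipose triglyceride lipase, 0.14 (SE 0.13, edgeR adjusted p = 0.482).

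Of 14 genes of VLDL assembly, the step fed by lipid that carboxylesterases release, edgeR called 0 lower and 0 higher. Of all tested genes 4.14% were lower and 4.97% higher. At an unadjusted p under 0.05 in edgeR's test 1 of the 14 was lower, and DESeq2 called 0. Their median log2 fold change was −0.16 and −0.02 with library totals only. Under TMM scaling it was negative for all 14, beside 7102 of 14496 tested genes. For 4 of the 14 every liver labelled *Themis*-KO lay below every liver labelled WT, beside 16.9% of all tested genes. Without liver 3 labelled *Themis*-KO edgeR called 3 lower, beside 13.8% of all genes. *Apob*, the structural protein of the particle, was at 3910 ± 116 and 3610 ± 63.1 CPM (SD, n = 3; log2 fold change −0.12, SE 0.09, edgeR adjusted p = 0.421) and *Mttp*, which loads lipid onto it, had −0.12 (SE 0.10, edgeR adjusted p = 0.415).

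Regulators known to act on drug-metabolism genes of liver formed a list of 17. EdgeR called 3 lower and 0 higher, beside 4.14% and 4.97% of all tested genes. At an unadjusted p under 0.05 in edgeR's test 8 were lower and 2 higher, beside 2011 and 2438 of all 14496 tested genes. DESeq2 called 6 lower and 1 higher, beside 1090 and 1279 of all tested genes. Without liver 1 or 2 of either label edgeR called 0 in both directions, and without liver 3 labelled *Themis*-KO 7 lower and 2 higher. The 3 called lower by edgeR with all livers were *Nr0b2*, a corepressor (log2 fold change −0.73, SE 0.17, edgeR adjusted p = 0.0397), *Ppara*, the fatty acid sensor of hepatocytes (−0.52, SE 0.11, edgeR adjusted p = 0.0345), and *Rxra*, the shared partner of many nuclear receptors (−0.42, SE 0.09, edgeR adjusted p = 0.0351). *Nr1i3*, the xenobiotic receptor CAR, was at 247, 352 and 288 CPM in livers 1, 2 and 3 labelled WT and at 139, 139 and 240 CPM in those labelled *Themis*-KO. Its groups did not overlap, and its log2 fold change was −0.78 (SE 0.23, edgeR adjusted p = 0.0720). *Nr1i2*, the receptor PXR, had −0.10 (SE 0.15, edgeR adjusted p = 0.687) and *Hnf4a* 0.05 (SE 0.14, edgeR adjusted p = 0.842).

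Most listed genes that male mouse livers express more than female ones were also lower in livers labelled *Themis*-KO, and their part in the *Ces* values was not tested. Of 16 such genes 12 were lower and 0 higher by edgeR, at an unadjusted p under 0.05 and by DESeq2 0 were higher as well, and the median log2 fold change was −1.46. The count of lower genes was 0 with the mitochondrial type as a covariate in edgeR's test, where the median was −1.20. It was 5 without liver 1 and 7 without liver 2 labelled WT, 1 without liver 1 and 4 without liver 2 labelled *Themis*-KO, and 12 without liver 3 of either label. In the fit with the mitochondrial type no gene of any list named here was called. *Mup7* was at 1075 ± 539 and 18.6 ± 8.60 CPM (SD, n = 3; edgeR adjusted p = 0.00772), *Mup1* at 9.10 ± 3.99 and 0.421 ± 0.207 CPM (edgeR adjusted p = 0.00918) and *Hsd3b5*, a hydroxysteroid dehydrogenase, at 15.2 ± 14.0 and 0.101 ± 0.0468 CPM (edgeR adjusted p = 0.0206). *Mup20*, the most abundant of the 16 male-biased genes, did not fall, at 8198 ± 1811 and 8877 ± 935 CPM (log2 fold change 0.11, SE 0.18, edgeR adjusted p = 0.693). The summed level of the male-biased list overlapped, at 9788 to 14832 CPM in livers labelled WT and 9439 to 11082 CPM in those labelled *Themis*-KO. Of 16 genes biased to females 7 were tested, and edgeR called 0 lower and 0 higher. At an unadjusted p under 0.05 in edgeR's test 2 were higher, and 1 by DESeq2. Their median log2 fold change was 0.47, and the change was negative for 1 of the 7. For 3 of the 7 every liver labelled *Themis*-KO lay above every liver labelled WT, beside 17.7% of all tested genes. The summed level of the 14 in the table did not overlap, at 62.7 to 146 CPM in livers labelled WT and 182 to 282 CPM in the others. In the growth hormone axis, which sets this bias in liver, 2 of 9 were lower and 0 higher by edgeR. Of all tested genes 4.14% were lower and 4.97% higher in that test. The log2 fold change was negative for 5 of the 9 genes of the axis, with a median of −0.01. The lower ones were *Igfals* (−1.05, SE 0.22, edgeR adjusted p = 0.0335) and *Ghr*, the receptor (−0.58, SE 0.13, edgeR adjusted p = 0.0404). The count of lower genes in this axis was 0 without liver 1 or 2 of either label and 2 without liver 3 of either. Without liver 3 labelled *Themis*-KO 2 genes of the axis were also called higher, and the median was 0.29. The part of this axis in the male-biased values was not tested.

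The cell markers also differed between the labels. The defining hepatocyte markers were abundant in every liver, and the summed level of the 11 listed in the table was 63191 to 73607 CPM in livers labelled WT and 54580 to 56467 CPM in those labelled *Themis*-KO, with 2 of 11 lower, *Serpina1c* (−1.03, SE 0.17, edgeR adjusted p = 0.0226) and *Ass1* (−0.49, SE 0.12, edgeR adjusted p = 0.0480). The summed macrophage markers ranged from 408 to 705 and from 687 to 892 CPM with 3 of 12 higher, liver 3 labelled WT lying inside the range of the other label, and those of hepatic stellate cells from 466 to 528 and from 700.3 to 732 CPM with 5 of 11 higher. Summed cholangiocyte markers ranged from 167 to 207 and from 399 to 629 CPM with 1 of 7 tested genes higher, and *Spp1*, which macrophages also express, was the most abundant of them at 160 and 435 CPM on average. Endothelial markers ranged from 245 to 267 and from 275 to 303 CPM with 1 of 9 higher. Those of T cells were at 4.56 to 6.16 and 3.61 to 7.95 CPM with 1 of 6 tested genes lower. Those of B cells were at 12.9 to 21.1 and 9.20 to 19.5 CPM and those of neutrophils at 2.16 to 4.38 and 3.26 to 10.7 CPM. EdgeR and DESeq2 called 0 of the 6 B cell and 0 of the 3 tested neutrophil genes, and at an unadjusted p under 0.05 in edgeR's test 0 and 3 of them passed. Of all tested genes edgeR called 4.14% lower and 4.97% higher. With each liver left out in turn it called 0 to 4 hepatocyte markers and 0 to 1 T cell markers lower. In these fits it called 0 to 8 macrophage, 0 to 6 stellate cell, 0 to 3 cholangiocyte and 0 to 2 endothelial markers higher. The part of these marker differences in the *Ces* values was not tested.

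**Figure D5:**
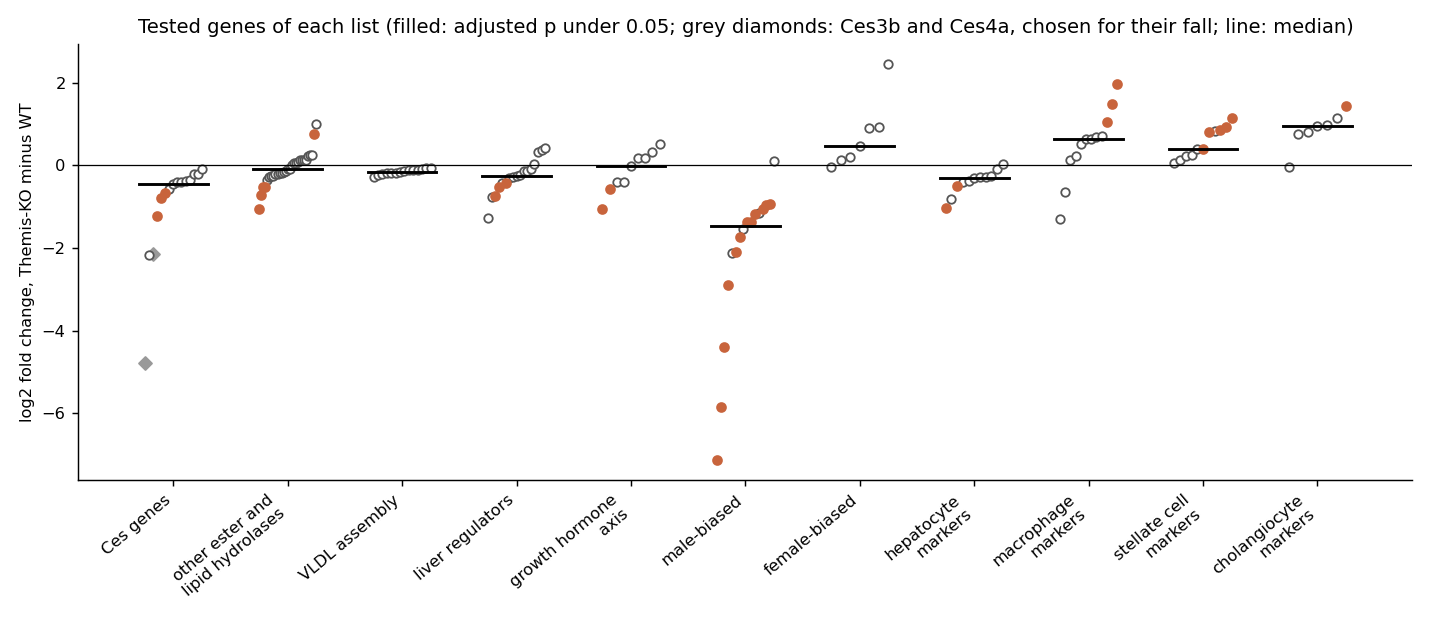
Log2 fold change between livers labelled *Themis*-KO and WT (vertical axis) of each tested gene in the *Ces* family and in 10 lists, with the median as a line. The line of the *Ces* family, at −0.46, includes *Ces3b* and *Ces4a*. Filled points had an adjusted p under 0.05 in edgeR's test and grey diamonds are *Ces3b* and *Ces4a*, which were chosen for their fall; medians run from −1.46 for male-biased genes to 0.96 for cholangiocyte markers.

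Summed, the 19 *Ces* genes held 0.366%, 0.460% and 0.368% of all counts in livers 1, 2 and 3 labelled WT and 0.308%, 0.281% and 0.328% in those labelled *Themis*-KO. The groups did not overlap. *Ces1* genes made up 55.0 ± 3.83% of this sum in livers labelled WT and 60.3 ± 3.50% in those labelled *Themis*-KO, *Ces3* genes 34.4 ± 3.86% and 28.9 ± 3.62%, and *Ces2* genes 10.6 ± 0.932% and 10.8 ± 0.783% (SD, n = 3).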

How the data were processed

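Poly(A) RNA of 6 livers was sequenced in pairs. Per the submitters' notes and the paper's methods, the authors trimmed reads with cutadapt 2.3, mapped them to GRCm38 with STAR 2.7.8a and estimated counts per gene with RSEM 1.3.3. The deposited values are estimated counts, whole numbers without normalization, and 0 columns were left unmapped. The members and all gene lists were chosen with earlier results of these data known. Counts were rounded, filtered by edgeR's filterByExpr, scaled by TMM and compared by edgeR 4.0.16 (glmQLFit, glmQLFTest) in R 4.3.3, without covariates, with Benjamini-Hochberg adjustment over 14496 genes and a threshold of 0.05. Standard errors were derived from the fold change and its F statistic, and log2 CPM used a prior count of 2. Fits were tested on simulated counts. Alternatives were other scalings and filters, DESeq2 1.42.0, a replicate block, omission of single livers, other thresholds and the mitochondrial type.

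Genes named are all *Ces* genes, up to 3 called genes per list with the largest change, regulators and lipid genes picked for their role (*Nr1i3*, *Nr1i2*, *Ppara*, *Hnf4a*, *Mttp*, *Apob*, *Aadac*, *Lipc*, *Pnpla2*), the 5 genes closest to *Ces3b*, neighbours of the arrays and the check genes. *Mup20* was added as the most abundant male-biased gene. Positions and lengths came from GENCODE vM21, in which 25353 of the listed genes and all 19 *Ces* genes were found, and promoters from RefSeq (GRCm38.p6). Promoters of *Ces1d*, *Ces1f*, *Ces2b*, *Ces2d-ps* and *Ces3a* were not used here. The labels do not say that the livers came from separate cages or litters, so p-values measure the spread between these samples. Between livers of a label chi-square per degree of freedom was at least 9.12, so each counted as 1 replicate. Intervals cover counting error only. Figures were drawn with matplotlib 3.10.9.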

Additional observations from a re-analysis of the deposited data

How the results depend on the processing

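Over all genes, 600 were lower and 721 higher. The counts became 387 and 1449 with total counts alone, 967 and 1212 without a filter, 1090 and 1279 with DESeq2, 1316 and 1664 at an adjusted p under 0.1, 162 and 269 with a 2-fold cutoff added, and 3 and 0 with the mitochondrial type as a covariate (741 and 783 at an unadjusted p under 0.05). With each liver left out they ran from 12 to 2039 lower and from 8 to 2228 higher. For the *Ces* genes, 5 lower became 8 without a filter, 9 at an adjusted p under 0.1, 3 with a 2-fold cutoff and 0 with the mitochondrial type (6 at an unadjusted p under 0.05), and ran from 1 (without liver 1 labelled *Themis*-KO) to 10 (without liver 3 of that label) with each liver left out. These counts include *Ces3b* and *Ces4a*, which were chosen for their fall; of the 3 with a 2-fold cutoff, as with the replicate block, only *Ces2a* was not. Without that pair, 3 lower became 6 without a filter, 6 with DESeq2 and 0 with the mitochondrial type, and 0 to 8 when single livers were omitted, in counts added after seeing the data. *Ces* genes called higher stayed at 0 in every fit run. With the replicate block 45 genes were lower and 17 higher, and 3 of them were lower *Ces* genes. The 12 lower male-biased genes became 7 in that fit. Same-numbered livers had a mean correlation of −0.13 in their deviations from the group means, against 0.066 for differently numbered ones, so the numbers were not taken as pairs. The direction turned for *Ces2g* with total counts alone (0.051) and for *Ces1g* with the mitochondrial type (0.12) and without liver 2 labelled WT (0.12, in a range of −0.39 to 0.12 over the omitted livers). The cause was not tested. Genes near the floor, *Ces4a* above all, are limited by depth.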
